A study of Mus musculus with 10 samples.

Results

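Solute carriers are membrane proteins that move amino acids, sugars, metal ions, inorganic ions, vitamins and metabolites across the plasma membrane and the membranes of organelles. Gene symbols of the form Slc, family number, a, member number name most of them, and the family number groups carriers by sequence and usually by substrate. The carriers described here were chosen by their symbol and selected on measured level: they are the probe sets whose only gene symbol has that form and whose mean log2(signal + 16) over the 10 arrays lay above the 40th percentile of all probe sets without the control probe sets. The rule leaves out 11 carriers (Slc7a11, Slc7a5, Slc3a2, Slc7a1, Slc1a4, Slc1a5, Slc38a2, Slc2a1, Slc16a3, Slc22a18 and Slc38a4) and, by its pattern, carriers with another letter such as Slc35b1. Before the level filter, 361 probe sets for 227 genes had such a symbol, and 177 probe sets for 114 genes lay above it, out of 13575 probe sets and 7741 named genes kept in all. A gene with several probe sets was described by the probe set of highest mean.

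RNA levels were read on 10 Affymetrix arrays from embryonic fibroblasts of the mouse, the collagen-making cells of connective tissue. The series concerns G9a, a methyltransferase for lysines of histone H3 and other proteins that the gene Ehmt2 encodes. G9a-deleted fibroblasts were reconstituted with 1 of 4 constructs: FLAG-G9a of the wild-type sequence (WT), FLAG-G9a with K165A (K165A), FLAG-G9a with the catalytic mutation H1093K (H1093K) or, as control, empty vector (delta). A further pair of arrays was titled only as deleted. Each of the 5 groups had 2 arrays, and no label says whether they were separate cultures, so a p-value here weighs a difference against array-to-array spread that could be purely technical. The promoter of the vectors, the cells' age and strain, whether the cells were clones, and what the cells labelled deleted carried are not given in the sources used here.

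Array medians ran from 181 to 200 in signal. The arrays labelled deleted stood apart: across kept probe sets they correlated with the other arrays with Pearson's r of 0.906 to 0.926, against at least 0.955 between arrays of the other groups, and their Ehmt2 signals of 1678 and 1749.7 were the highest, which goes against their label (WT 676 and 620.4, K165A 704 and 725, H1093K 461 and 494, delta 473 and 415). By this probe set Ehmt2 was above delta past the threshold in WT (0.53) and K165A (0.67), but the H1093K difference of 0.10 did not pass. H1093K lay below WT (-0.43, past the threshold). Another Ehmt2 probe set lay under the level filter and was scattered (WT 40.9 and 105.8). Whether the brighter probe set lies within the deleted part of Ehmt2 or in the introduced constructs was not known here, which limits it as a check of the labels. How much of each G9a form the cells held was not known either. The arrays titled as deleted are called the arrays labelled deleted throughout. Of 10 fibroblast markers, 9 were on the array and 8 passed the level filter, while Pdgfra lay under it. Of these 8, Col1a1, Col1a2, Vim and Fn1 did not pass in WT against delta, and Thy1 (-0.91) and S100a4 (-0.45) were lower and Col3a1 (0.89) and Pdgfrb (1.05) higher. On the arrays labelled deleted S100a4 (-2.45) and Thy1 (-0.65) were lower than in delta and Col3a1 (1.77) and Pdgfrb (0.87) higher. Col1a1, Col1a2, Vim and Fn1 did not pass there either. Pdgfra read 304 and 317 on those arrays, against 83.8 and 41.3 in delta. The level filter kept 3 of 7 epithelial markers (Krt8, Krt18 and Krt19), 3 of 7 macrophage and leukocyte markers (Csf1r, Cd68 and Laptm5), 1 of 6 endothelial markers (Kdr) and 0 of 5 skeletal muscle markers, and Epcam, Ptprc, Pecam1 and Cdh5 lay under it. The summed muscle markers reached 387 to 410 in delta and 328 to 373 in H1093K. Their sums were smaller for WT (194 to 273), K165A (220 to 299) and the arrays labelled deleted (187 to 192). The smaller WT and K165A sums came mainly from Acta1, with group means of 42.1 (WT), 41.2 (K165A), 130 (H1093K) and 208 (delta). Tnnt3 had WT and K165A below H1093K and delta too, at lower signal. Des, Myod1 and Myog instead had higher means with WT and K165A than with delta (Des 91.3 and 109, against 69.3). Acta1, Tnnt3 and the sum thus had WT and K165A below H1093K and delta, and the others did not. All 5 muscle markers lay under the level filter and were not tested. The arrays of a group could differ by more than the groups did (Myod1 76.6 and 54.5 in WT, 70.6 and 51.3 in delta). The summed signal of 7 epithelial markers was 4172 to 4235 on the arrays labelled deleted, 822 to 888 in WT, 670 to 776 in K165A and 942 to 1091 in H1093K, against 1266 to 1462 in delta. The higher sum on the arrays labelled deleted came mainly from the keratins Krt8 and Krt18. Against delta, Krt18 (-1.65 in WT, -1.73 in K165A) and Krt19 (-0.61 and -0.93) were lower past the threshold, and Krt8 did not pass (0.05 and -0.42). Krt18 was higher in H1093K than in WT (1.10, past the threshold). On the arrays labelled deleted Krt19 did not pass (-0.16 against delta), and the epithelial adhesion protein Cdh1 read 31.9 and 16.1, against 135 and 77.4 in delta. The part of these differences in the carrier results was not tested.

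Carriers cover most classes of small substrate. Amino acid and lactate carriers supply growing fibroblasts with building blocks and carry off the products of glycolysis, the phosphate and chloride carriers set intracellular ions and volume, and the Slc25 family connects the mitochondrial matrix with the cytosol. Classed by the usual substrate of their family number, the 114 genes comprised 30 mitochondrial carriers, 22 metal ion carriers, 17 carriers of vitamins, lipids, organic ions and cofactors, 14 of inorganic ions and acid, 11 of amino acids and peptides, 7 of sugars, 5 of nucleotide sugars, 4 of neurotransmitters, creatine and taurine, 2 of monocarboxylates and 2 of nucleosides.

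Near the threshold of 6.816 on the log2(signal + 16) scale, the members just inside were Slc39a8 (6.82), a second probe set of Slc38a10 (6.83) and Slc9a8 (6.85), and just outside lay Slc2a3 (6.79), Slc12a5 (6.80) and a second probe set of Slc23a2 (6.81). For 5 of the 114 genes the mean over the other 4 groups lay under the threshold: Slc7a3 and Slc39a8 without the arrays labelled deleted, Slc52a3 without delta, Slc34a2 without K165A and Slc9a8 without WT. These passed through the group in which they were high, so a difference there is partly built into the choice. Among the other 109, the counts past the threshold described below were 15 in WT, 14 in K165A, 0 in H1093K and 31 on the arrays labelled deleted against delta, and 10 in H1093K against WT. The median gap between the 2 arrays of a group, on the log2 scale, was 0.171 for the carriers in K165A, 0.150 in H1093K, 0.141 in the arrays labelled deleted and 0.116 in WT, against 0.149 in delta.

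When wild-type G9a was restored, 16 of the 114 carriers differed from delta, 14 of them lower and 2 higher (limma, Benjamini-Hochberg adjusted p under 0.05 over all 13575 probe sets). The share of 14% lay near the 13.1% of all named genes called, and the shares by direction were 12.3% lower and 1.75% higher, beside 7.48% and 5.66% of all named genes. The carriers' median log2 difference was -0.06, beside -0.02 over all genes. Those that fell included a glutamate carrier, 2 monocarboxylate carriers, a phosphate carrier, 5 metal ion carriers and 3 mitochondrial carriers, and the 2 that rose carry chloride with sodium and potassium (Slc12a2) and choline (Slc44a1). The count was 9 without WT replicate 1, 8 without WT replicate 2, 10 without delta replicate 1 and 7 without delta replicate 2, and 26 with the replicate number as a block.

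With the K165A form, 15 carriers differed from delta, 13 lower and 2 higher, a share of 13.2% beside 12.6% of all named genes. The shares were 11.4% lower and 1.75% higher, beside 7.49% and 5.15% of all named genes, and the median was -0.08, beside -0.01 over all genes. The count was 9 without K165A replicate 1, 8 without delta replicate 1 and 7 without delta replicate 2, and 23 with the replicate block. With the catalytic mutant H1093K, limma called 0 of the 114 against delta, beside 0.969% of all named genes. There 11 carriers had an unadjusted p under 0.05, the smallest adjusted p was 0.0550, and the replicate block called 2 (Slc25a25 and Slc39a7, both lower). The WT, K165A and H1093K comparisons share the delta arrays, so their differences are given side by side and not correlated.

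**Figure D1:**
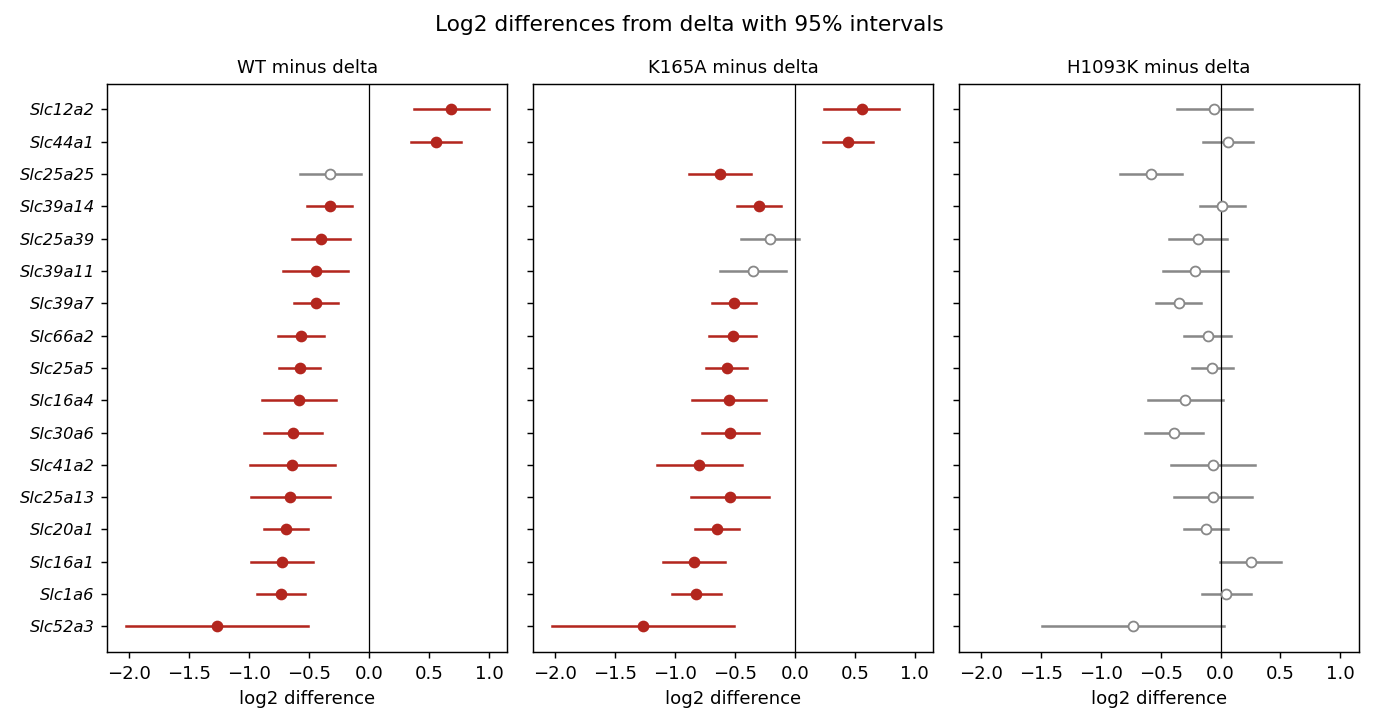
Log2 difference from delta on the log2(signal + 16) scale (x axis) for the 17 carriers that passed in WT or K165A against delta, in WT, K165A and H1093K. Points are limma estimates, bars their 95% intervals, and filled red points passed the adjusted threshold; 16 passed in WT, 15 in K165A and 0 in H1093K.

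The upstream sequences of 5 carriers are shown first, because 4 of them (Slc1a6, Slc20a1, Slc16a1 and Slc25a5) were lower with WT and K165A and higher in H1093K than in WT whichever single array was left out, and Slc44a1 went the other way. Each is the 250 bases before the annotated start, 5′ to 3′ on the plus strand of GRCm38.p6, from RefSeq, and capitals mark matches on either strand to the GC box (GGGCGG), the CCAAT box (CCAAT), the E-box (CACGTG), the TATA box (TATAAA) or the AP-1 site (TGANTCA), where neighbouring matches may overlap. Where the table held 2 starts (Slc20a1 and Slc44a1), the first listed was taken.
Slc1a6 (chr10:78780246-78780495): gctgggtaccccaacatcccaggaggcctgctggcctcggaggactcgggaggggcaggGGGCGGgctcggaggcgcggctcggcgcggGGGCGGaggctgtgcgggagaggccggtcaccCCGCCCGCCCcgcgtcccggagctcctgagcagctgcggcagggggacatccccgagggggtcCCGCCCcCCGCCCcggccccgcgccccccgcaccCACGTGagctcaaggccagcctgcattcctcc
Slc20a1 (chr2:129198523-129198772): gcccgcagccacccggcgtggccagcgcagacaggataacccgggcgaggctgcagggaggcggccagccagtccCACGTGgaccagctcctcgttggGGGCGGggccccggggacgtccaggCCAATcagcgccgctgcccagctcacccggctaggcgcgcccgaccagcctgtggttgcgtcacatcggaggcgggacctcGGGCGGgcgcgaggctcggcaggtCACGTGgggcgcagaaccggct
Slc16a1 (chr3:104638414-104638663): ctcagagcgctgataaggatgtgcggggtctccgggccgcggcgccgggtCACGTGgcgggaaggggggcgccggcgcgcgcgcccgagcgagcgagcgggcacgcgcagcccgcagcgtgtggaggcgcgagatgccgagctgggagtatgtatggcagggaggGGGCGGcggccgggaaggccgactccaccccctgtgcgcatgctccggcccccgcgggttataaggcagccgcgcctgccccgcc
Slc25a5 (chrX:36795347-36795596): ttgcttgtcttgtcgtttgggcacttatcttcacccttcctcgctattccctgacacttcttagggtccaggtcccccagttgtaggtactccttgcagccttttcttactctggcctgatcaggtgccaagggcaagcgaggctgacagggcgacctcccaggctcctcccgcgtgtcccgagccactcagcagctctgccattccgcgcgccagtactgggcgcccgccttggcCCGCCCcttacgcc
Slc44a1 (chr4:53440163-53440412): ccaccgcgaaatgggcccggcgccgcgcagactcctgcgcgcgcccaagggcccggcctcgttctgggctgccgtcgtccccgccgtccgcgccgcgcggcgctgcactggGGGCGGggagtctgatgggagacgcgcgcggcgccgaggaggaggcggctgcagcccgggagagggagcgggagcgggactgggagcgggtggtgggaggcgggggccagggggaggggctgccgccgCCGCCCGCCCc

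An E-box match was present in 3 of these 5 windows (1 in Slc1a6, 2 in Slc20a1 and 1 in Slc16a1), and 6.05% of 27025 promoter windows of this length held 1 or more. GC box matches numbered 6 in Slc1a6, 2 in Slc20a1, 1 in Slc16a1, 1 in Slc25a5 and 3 in Slc44a1, and 32.9% of all windows held at least 1. The CCAAT box matched once, in Slc20a1 (34.5% of all windows), and the TATA box and AP-1 site in none of the 5 (13% and 6.87% of all windows). The GC content was 78.8% in Slc1a6, 75.2% in Slc20a1, 76.4% in Slc16a1, 61.6% in Slc25a5 and 81.2% in Slc44a1, beside a median of 52% over all windows. The matches are descriptions of the sequence and not binding sites. The 5 genes were chosen by their differences in these data, and all 5 windows were richer in GC than the median window. Whether they hold more matches than windows of like GC content was not tested.

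Among amino acid carriers, Slc1a6 (also EAAT4), a glutamate carrier best known from cerebellar Purkinje cells, read 1188 and 1273 in WT, 1167 and 1148 in K165A and 2051 and 2207 in H1093K, against 1959 and 2158 in delta. The WT and K165A arrays all lay below every H1093K and delta array. The difference from delta was -0.73 ± 0.09 SE in WT (limma adjusted p = 0.000642), -0.82 in K165A (adjusted p = 0.000322) and 0.05 in H1093K (95% interval -0.15 to 0.25, adjusted p = 0.902). H1093K lay above WT by 0.78 (adjusted p = 0.000469). Slc66a2, placed in this class only by its family number, fell likewise, to 516 and 569 in WT and 557 and 568 in K165A. It read 766 and 739 in H1093K and 782 and 843 in delta. Its differences from delta were -0.57 in WT (adjusted p = 0.00249) and -0.52 in K165A (adjusted p = 0.00438). No other of the 11 amino acid and peptide carriers passed against delta in WT or K165A.

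The proton-coupled lactate and pyruvate carrier Slc16a1 (also MCT1) read 475 and 459 in WT, 457 and 404 in K165A and 912 and 958 in H1093K, against 692 and 887 in delta. Every WT and K165A array lay below the other 4, and both H1093K arrays lay above both delta arrays. The fall was 1.66-fold in WT (log2 difference -0.73 ± 0.11 SE, limma adjusted p = 0.00294) and 1.79-fold in K165A (adjusted p = 0.00128), and the H1093K difference from delta of 0.25 did not pass (95% interval -0.01 to 0.51). H1093K exceeded WT by 0.98 (adjusted p = 0.000534), the largest value among the 114 carriers in that comparison. Slc16a4, a carrier of the same family, read 185 and 166 in WT, 175 and 186 in K165A and 239 and 199 in H1093K, against 266 and 276 in delta; its falls (WT adjusted p = 0.0244, K165A adjusted p = 0.0325) were lost when any array of the groups compared was left out. Slc16a3, a lactate exporter left out by the rule, differed from delta by 0.12 in WT and did not pass (adjusted p = 0.845). Basigin (Bsg), the chaperone that takes Slc16a1 to the cell surface, differed from delta by 0.09 in WT and 0.11 in K165A, neither past the threshold.

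**Figure D2:**
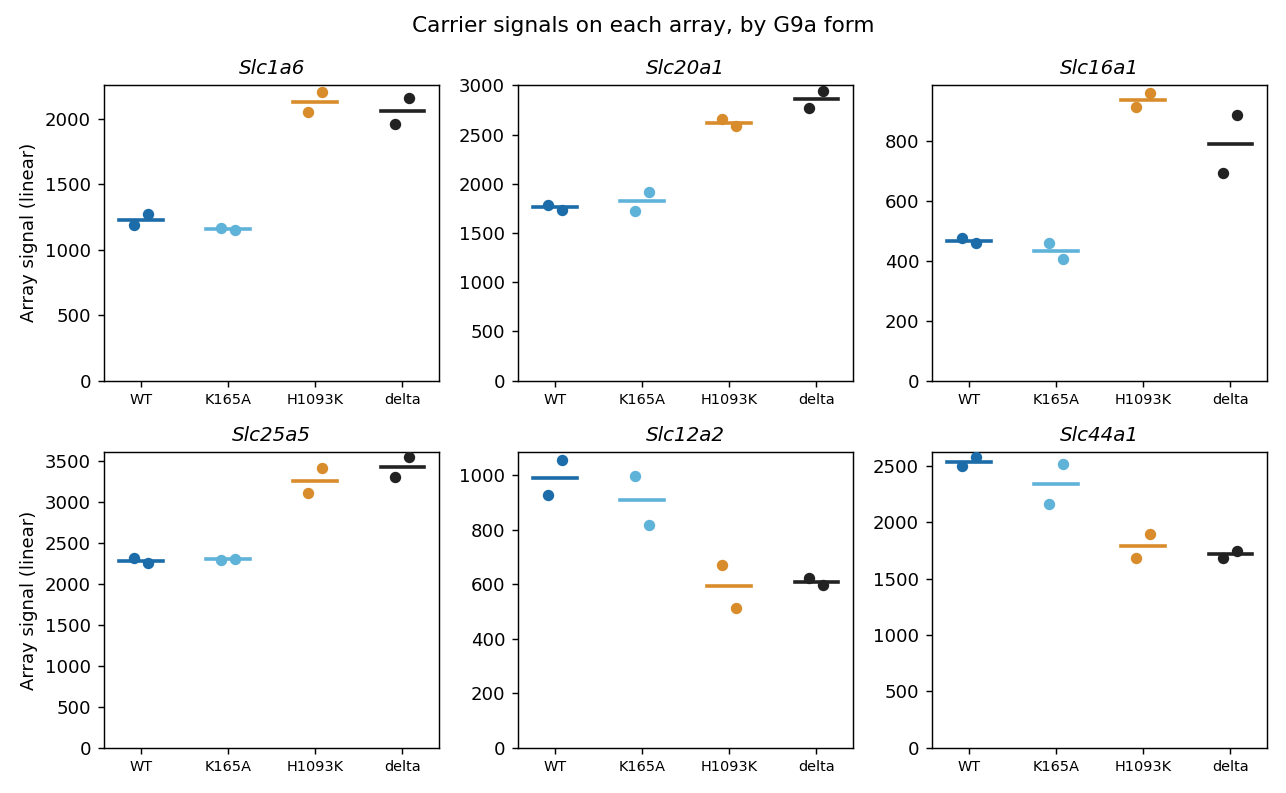
Signal on each array (linear scale, y axis from 0) for 6 carriers in WT, K165A, H1093K and delta. Points are single arrays and bars group means (n = 2); for Slc1a6, Slc20a1, Slc16a1 and Slc25a5 the WT and K165A arrays sit below all H1093K and delta arrays, and for Slc12a2 and Slc44a1 above them.

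Among carriers of inorganic ions, Slc20a1 (also PiT1), a sodium-coupled phosphate importer, fell and Slc12a2 (also NKCC1), which brings sodium, potassium and chloride into the cell, rose. Slc20a1 read 1787 and 1737 in WT, 1724 and 1920 in K165A and 2656 and 2585 in H1093K, against 2774 and 2944 in delta, with differences from delta of -0.69 ± 0.08 SE in WT (limma adjusted p = 0.000544), -0.65 in K165A (adjusted p = 0.000801) and -0.12 in H1093K (adjusted p = 0.624). A dimmer Slc20a1 probe set gave -0.68 in WT and -0.66 in K165A, which did not pass. Slc12a2 read 926 and 1057 in WT, 997 and 818 in K165A and 672 and 512 in H1093K, against 622 and 596 in delta. All 4 WT and K165A arrays lay above the H1093K and delta arrays, and 3 of 3 Slc12a2 probe sets passed in both comparisons, by 0.69 to 0.87 in WT and 0.56 to 0.80 in K165A. By the probe set of highest mean the adjusted p was 0.0122 in WT, lost without WT replicate 2 or delta replicate 2, and 0.0315 in K165A, lost without K165A replicate 1 or either delta array.

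Slc24a3 (also NCKX3), which exchanges sodium for calcium and potassium, was lower in H1093K than in WT, with 202 and 249 in H1093K, 392 and 362 in WT, 392 and 384 in K165A and 248 and 311 in delta. The H1093K minus WT difference was -0.71 (adjusted p = 0.0210), lost without WT replicate 1, WT replicate 2 or H1093K replicate 1. Against delta the WT difference of 0.42 did not pass (adjusted p = 0.119; adjusted p = 0.0498 with the replicate block), nor did the K165A difference of 0.46 (adjusted p = 0.0933; adjusted p = 0.0363 with the block).

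Of 22 metal ion carriers, 5 fell in WT and 4 in K165A against delta, and 17 and 18 did not pass, beside 7.48% and 7.49% of all named genes lower. Slc30a6 (also ZnT6), a zinc carrier of the Golgi, read 462 and 419 in WT, 468 and 478 in K165A and 539 and 512 in H1093K, against 683 and 704 in delta (WT difference -0.64, adjusted p = 0.00439). Here the H1093K arrays lay between, and H1093K minus WT was 0.25 (adjusted p = 0.227), which did not pass. Slc39a7 (also ZIP7), which releases zinc from the endoplasmic reticulum, showed a like order, with 1218 and 1177 in WT, 1116 and 1179 in K165A, 1219 and 1347 in H1093K and 1561 and 1718 in delta. Its H1093K difference from delta was -0.35 (adjusted p = 0.0984; adjusted p = 0.0177 with the replicate block). For Slc30a6 and Slc39a7 the 3 G9a forms all lay below both delta arrays. The Slc30a6 call in K165A was lost without either K165A array or delta replicate 2, and the Slc39a7 call in WT without WT replicate 2 or delta replicate 2.

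Slc39a14 (also ZIP14), an importer of zinc and iron, had H1093K close to delta, with 503 and 519.8 in WT, 525 and 521 in K165A, 665 and 642 in H1093K and 662 and 632 in delta. Its WT difference of -0.33 (adjusted p = 0.0317) was lost without any WT or delta array or H1093K replicate 2, and its K165A fall (adjusted p = 0.0481) without any 1 of the 10 arrays. Slc41a2, of the magnesium carrier family, read 213 and 182 in WT, 186 and 164.7 in K165A and 344 and 265 in H1093K, against 327 and 305 in delta (WT adjusted p = 0.0278, K165A adjusted p = 0.0104). The WT call was lost without any WT or delta array, and the K165A call without K165A replicate 2 or delta replicate 1. Slc39a11 passed in WT (log2 difference -0.45, adjusted p = 0.0418), a call lost without any 1 of the 10 arrays. The metal-binding protein Mt2, a target of zinc-responsive transcription, was also lower than in delta. Its differences were -0.38 in WT (limma adjusted p = 0.00693) and -0.35 in K165A (adjusted p = 0.00983). It was higher in H1093K than in WT by 0.66 (adjusted p = 0.000244). The related metal-binding protein Mt1 did not pass, with -0.04 in WT and -0.08 in K165A against delta and 0.29 in H1093K against WT.

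Of 30 mitochondrial carriers, 3 fell in WT and 3 in K165A against delta, and 27 did not pass in each comparison, with the same 7.48% and 7.49% of all named genes lower. Slc25a5 (also ANT2), which exchanges ADP for ATP across the inner membrane, read 2315 and 2253 in WT, 2295 and 2310.3 in K165A and 3112 and 3417 in H1093K, against 3307 and 3547 in delta. Its difference from delta was -0.58 ± 0.08 SE in WT (adjusted p = 0.000996) and -0.57 in K165A (adjusted p = 0.00115), and H1093K exceeded WT by 0.51 (adjusted p = 0.00239). Of its 8 probe sets, 6 passed in WT and 6 in K165A, 5 passed in H1093K against WT, and the rest had differences of the same sign. The related carrier Slc25a4 did not pass, with differences from delta of 0.02 in WT and -0.09 in K165A; whether probe sets of these similar genes share signal was not tested.

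Slc25a13 (also citrin), the aspartate and glutamate exchanger, read 317 and 404 in WT, 385 and 393 in K165A and 483 and 622 in H1093K, against 572 and 576 in delta. Its WT call (adjusted p = 0.0180) was lost without WT replicate 1 or either delta array, and its K165A call (adjusted p = 0.0415) without any K165A, delta or labelled deleted array. Slc25a25, a carrier of ATP-magnesium and phosphate, was lower in K165A, with 255 and 259.7 in K165A, 305 and 338 in WT, 285 and 249 in H1093K and 392 and 420 in delta. Both mutants' arrays lay below both WT arrays, yet K165A minus WT (-0.30, 95% interval -0.56 to -0.05, adjusted p = 1.0) and H1093K minus WT (-0.26, adjusted p = 0.242) did not pass. Against delta, its difference was -0.63 in K165A (adjusted p = 0.00693; lost without delta replicate 2) and -0.58 in H1093K (adjusted p = 0.0550; adjusted p = 0.0214 with the replicate block). Slc25a39, which imports glutathione, passed in WT by its brightest probe set (log2 difference -0.40, limma adjusted p = 0.0397). That call was lost without any array other than the K165A arrays. Of its 3 probe sets, 2 passed in WT and 1 in K165A, with differences of -0.75 to -0.20 in WT and -0.65 to -0.21 in K165A.

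Among carriers of vitamins, lipids and cofactors, Slc44a1 (also CTL1), a choline carrier, read 2498 and 2574 in WT, 2160.3 and 2518 in K165A and 1682 and 1898 in H1093K, against 1685 and 1746 in delta. Its difference from delta was 0.56 ± 0.09 SE in WT (adjusted p = 0.00407) and 0.44 in K165A (adjusted p = 0.0145; lost without K165A replicate 2 or either delta array). H1093K was lower than WT, with a difference of -0.50 (adjusted p = 0.00893), a call lost without H1093K replicate 1 or either WT array. A dimmer Slc44a1 probe set gave 0.68 in WT and 0.59 in K165A against delta, which did not pass, and -0.83 in H1093K against WT, which did. Slc52a3, a riboflavin carrier, had the largest fall past the threshold in WT and in K165A against delta but was dim and scattered, with 98.5 and 60.1 in WT, 94.1 and 64.1 in K165A and 145 and 98.8 in H1093K, against 201 and 218 in delta. Both calls (adjusted p = 0.0387 in WT and 0.0412 in K165A) were lost when any array of the groups compared was left out (in K165A also without WT replicate 1), and Slc52a3 passed the level filter only through delta.

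The 7 sugar carriers, 5 nucleotide sugar carriers, 4 carriers of neurotransmitters, creatine and taurine, and 2 nucleoside carriers had 0 calls against delta in WT, K165A or H1093K without the replicate block. The taurine carrier Slc6a6 came nearest, with 587 and 647 in WT, 514 and 614 in K165A and 416 and 485 in H1093K, against 427 and 493 in delta. The WT difference was 0.41 (adjusted p = 0.0641; adjusted p = 0.00395 with the replicate block) and the K165A difference 0.28 (adjusted p = 0.202; adjusted p = 0.0273 with the block). With the block the sugar carrier Slc2a8 also passed in K165A (difference 0.39, adjusted p = 0.161; adjusted p = 0.0464 with the block). The creatine carrier Slc6a8 (0.03 in WT), the Golgi sialic acid carrier Slc35a1 (-0.04) and the nucleoside carrier Slc29a1 (-0.19) did not pass.

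In the direct comparison of K165A with WT, limma called 0 of the 114 carriers, beside 0% of all named genes, and 1 carrier had an unadjusted p under 0.05. For the 17 carriers called against delta in WT or K165A, K165A minus WT ran from -0.30 to 0.19, and the 95% intervals reached from -0.75 to 0.77, so differences of that size are not excluded for the most variable of them. The replicate block also called 0. In H1093K against WT, 10 carriers passed, 7 higher and 3 lower, a share of 8.77% beside 8.87% of all named genes (4.56% higher and 4.31% lower). The 7 higher were Slc1a6, Slc16a1, Slc20a1, Slc25a5, Slc25a13, Slc39a14 and Slc66a2, and the 3 lower were Slc12a2, Slc24a3 and Slc44a1. The count was 6 without H1093K replicate 1, 5 without WT replicate 1 and 6 without WT replicate 2, and 16 with the replicate block. Slc1a6, Slc16a1, Slc20a1 and Slc25a5 passed whichever array was left out, and the other 6 calls were each lost without at least 1 array of H1093K or WT.

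**Figure D3:**
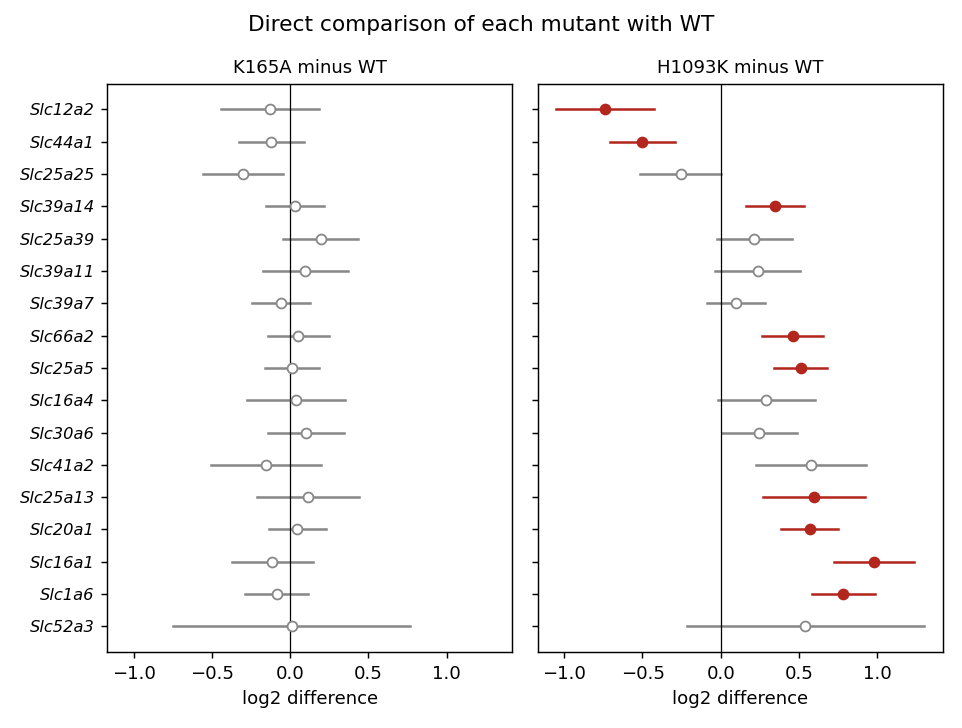
Log2 difference from WT (x axis) in K165A and in H1093K for the same 17 carriers, with 95% intervals from limma; filled red points passed the adjusted threshold. None passed in K165A, where estimates ran from -0.30 to 0.19, and 9 of the 17 passed in H1093K, where they ran from -0.74 to 0.98.

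On the arrays labelled deleted, carriers of glycine and lactate were among those most above delta, beside Slc7a3 and Slc39a8, which passed the level filter only through these arrays, and carriers of glutamate, urea and phosphate among those most below. Of the 114 carriers, 34 passed against delta, 14 higher and 20 lower, a share of 29.8% beside 35.6% of all named genes, of which 16.7% were higher and 18.9% lower. The median log2 difference was -0.09, beside -0.02 over all genes. On the log2 scale 12 carriers differed by more than 1, and the share over all named genes was not counted. These 12 include Slc7a3 and Slc39a8, and also Slc52a3, which passed the level filter only through delta. Of the 34 calls, 22 held whichever array was left out.

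Slc7a3 (also CAT3), a carrier of arginine and other cationic amino acids, read 1024 and 948 on the arrays labelled deleted, with 105 and 86.1 in WT, 115 and 96.7 in K165A and 83.9 and 61.3 in H1093K, against 103 and 75 in delta (log2 difference from delta 3.27, limma adjusted p = 1.60e-06). Slc39a8 (also ZIP8), an importer of zinc and manganese, read 466 and 419.5 there, against 68.4 and 56 in delta (2.55, adjusted p = 4.82e-06). Both passed the level filter only through these arrays, and all 8 other arrays were low for both. Slc6a9 (also GlyT1), a glycine carrier, read 968 and 827, against 274 and 257 in delta, a 3.23-fold difference (adjusted p = 2.84e-06). Slc43a3, counted by its family with amino acid carriers but known as a purine nucleobase carrier, read 748 and 644, against 293 and 333 in delta (2.16-fold, adjusted p = 0.000345).

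Slc16a1 read 2101 and 2209 on the arrays labelled deleted, against 692 and 887 in delta, 2.71-fold higher (adjusted p = 1.01e-05), although WT and K165A lay below delta. Its other chaperone embigin (Emb) read 762 and 791, against 197 and 208 in delta (3.62-fold, adjusted p = 1.30e-06), and Bsg differed by -0.05. Smaller rises that passed included the mitochondrial pyrimidine nucleotide carrier Slc25a33 (0.80), Slc25a39 (0.62), Slc12a2 (0.69), the glutamine carrier Slc38a1 (0.58), the sugar carrier Slc50a1 (0.53) and Slc6a6 (0.50). The last of these was lost without deleted replicate 2 or delta replicate 1. Of the epithelial markers kept, Krt8 and Krt18 rose on the same arrays (Krt8 1577 and 1630.4, against 145 and 112 in delta) and Krt19 did not pass, while Cdh1, which lay under the filter, read 31.9 and 16.1 there.

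Slc1a6 read 235 and 204 on the arrays labelled deleted, against 1959 and 2158 in delta, 8.83-fold lower (log2 difference -3.14 ± 0.09 SE, adjusted p = 1.72e-08), the smallest adjusted p among the carriers in any comparison with delta. Slc20a1 read 924 and 1026, against 2774 and 2944 in delta (2.90-fold lower, adjusted p = 6.78e-07). For both, these arrays lay below WT and K165A, which lay below H1093K and delta. Slc14a2, a urea carrier of the kidney, read 55.4 and 30.6, against 171 and 183 in delta (-1.74, adjusted p = 0.000362), and was dim in all groups. Further falls that passed were Slc41a2 (-1.19), the mitochondrial iron carrier Slc25a37 (-1.01), Slc66a2 (-1.0), Slc16a4 (-0.90) and Slc39a14 (-0.62). Slc25a28, the other mitochondrial iron carrier, was higher instead (0.43, adjusted p = 0.00694; lost without deleted replicate 2). Slc25a26, which imports the methyl donor S-adenosylmethionine into mitochondria, was lower (-0.75, adjusted p = 0.0261), a call lost without either array labelled deleted or delta replicate 1.

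Further carriers that passed on the arrays labelled deleted against delta moved less. The potassium and chloride exporter Slc12a4 (also KCC1) read 488 and 477 on the arrays labelled deleted, against 622 and 664 in delta (log2 difference -0.40, limma adjusted p = 0.00361). It read 747 and 719.7 in WT, 724 and 749 in K165A and 769 and 807 in H1093K. Slc12a2, which moves chloride inward, was above delta on the arrays labelled deleted (0.69). It was also above delta in WT (0.69) and K165A (0.56), where the Slc12a4 arrays lay above those of delta. Slc10a3 read 247 and 252, against 387 and 413 in delta (adjusted p = 0.000757), and the zinc carrier Slc30a4 was lower (-0.37, adjusted p = 0.00419). The zinc carrier Slc30a5, which works with Slc30a6 in the early secretory pathway, was higher (0.36; lost without deleted replicate 1), while Slc30a6 was lower (-0.38; lost without deleted replicate 2 or either delta array). The ornithine carrier Slc25a15 (-0.43) and the lysosomal cationic amino acid carrier Slc66a1 (-0.55) were lower, calls lost without deleted replicate 2 or delta replicate 1 and, for Slc66a1, also without delta replicate 2. Slc6a17, a neutral amino acid carrier of synaptic vesicles, was higher (0.56; lost without deleted replicate 1 or either delta array).

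**Figure D4:**
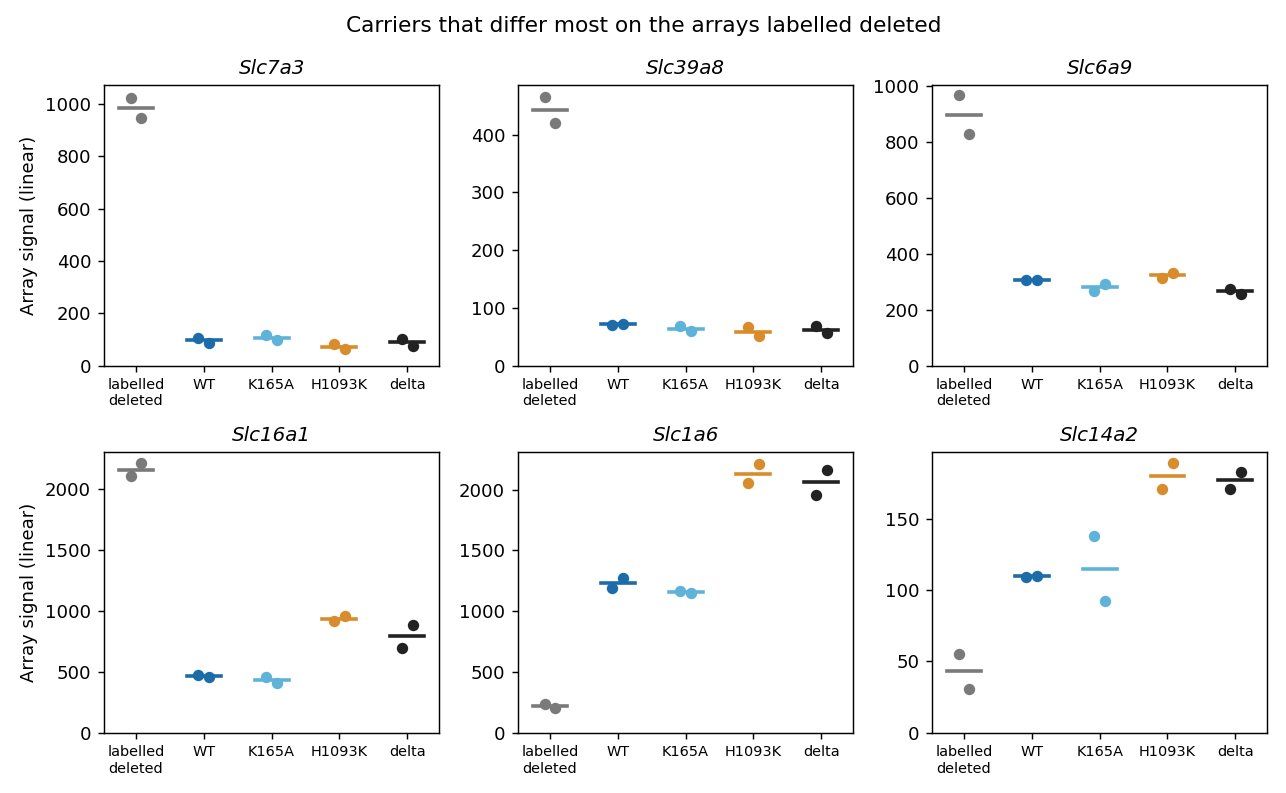
Signal on each array (linear scale, y axis from 0) for 6 carriers in the arrays labelled deleted, WT, K165A, H1093K and delta; points are arrays and bars group means (n = 2). Slc7a3, Slc39a8, Slc6a9 and Slc16a1 are highest and Slc1a6 and Slc14a2 lowest on the arrays labelled deleted, with no overlap with any other group; Slc7a3 and Slc39a8 passed the level filter only through these arrays, so their height there was part of how they were chosen.

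Across all 5 groups, 37 of the 114 carriers differed by limma's F test (32.5%, beside 39.2% of all named genes), and 58 did with the replicate block. Of the 37, 15 had their highest and 14 their lowest group mean on the arrays labelled deleted, shares of 40.5% and 37.8% beside 39.5% and 43.3% among all named genes called. Delta held the highest mean for 11 (29.7%, beside 20.7% of all named genes called) and WT for 1 (2.70%, beside 13.9%). By class, 7 of 11 amino acid carriers passed, 9 of 30 mitochondrial, 6 of 22 metal ion, 5 of 14 inorganic ion, 5 of 17 vitamin and lipid, 2 of 2 monocarboxylate, 2 of 4 neurotransmitter and 1 of 7 sugar carriers, and 0 of the 5 nucleotide sugar and 2 nucleoside carriers. The other 77 carriers did not pass the F test. Among them were the second phosphate importer Slc20a2, with 475 and 505 in WT, 375 and 452 in K165A, 448 and 513 in H1093K, 402 and 444 on the arrays labelled deleted and 445 and 502 in delta (F test adjusted p = 0.358), and the nucleoside carriers Slc29a1 (adjusted p = 0.176) and Slc29a3 (adjusted p = 0.329). A dimmer Slc20a2 probe set was lower on the arrays labelled deleted than in delta (-0.45, past the threshold), as Slc20a1 was. The UDP-galactose carrier Slc35a2 and the iron importer Slc11a2 did not pass (F test adjusted p = 0.214 and 0.175) but did with the replicate block (0.0384 and 0.0478). The 3 Slc11a2 probe sets ran from -0.45 to 0.55 on the arrays labelled deleted against delta, and the 1 that passed there was higher; that probe set also passed in K165A (0.47).

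**Figure D5:**
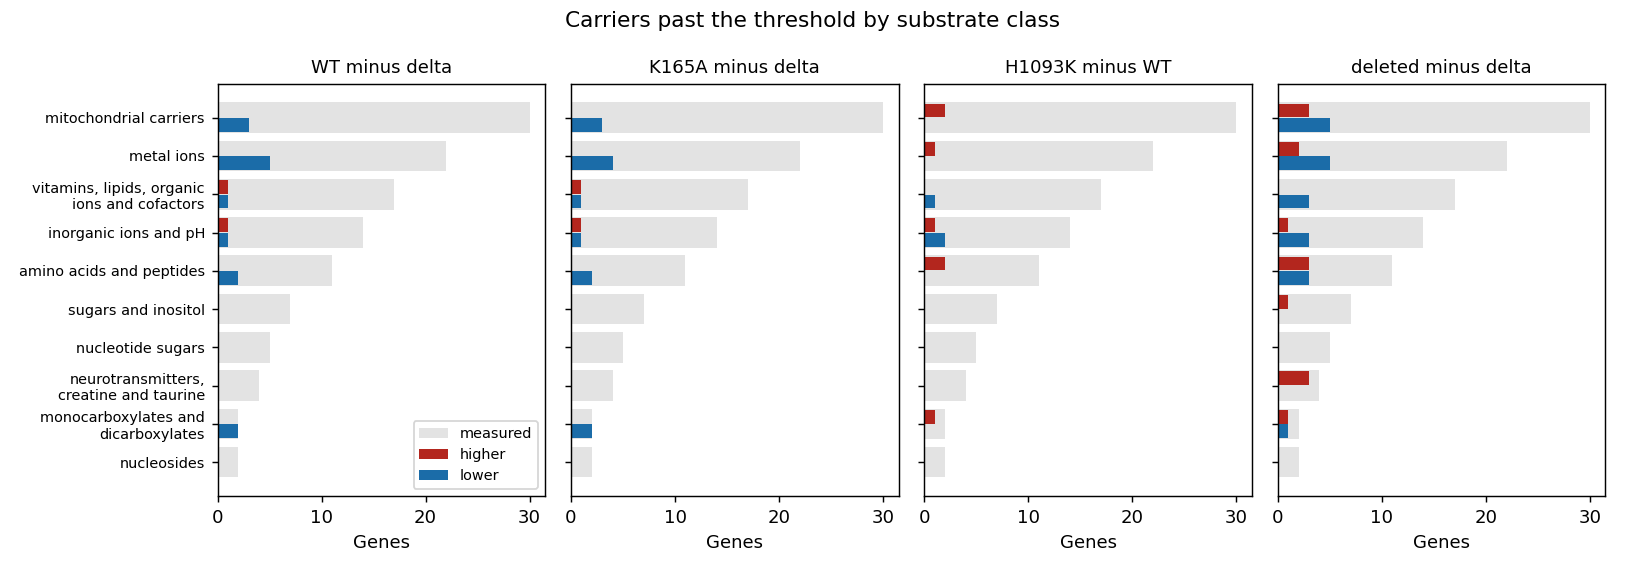
Number of carriers (x axis) in each substrate class that were measured (grey), higher (red) or lower (blue) past the adjusted threshold in 4 comparisons. In WT and K165A against delta most calls are lower, in 6 classes, and the 2 higher calls lie among inorganic ion carriers (Slc12a2) and carriers of vitamins and lipids (Slc44a1), while on the arrays labelled deleted both directions occur.

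For 42 carriers with several kept probe sets, calls in opposite directions occurred in 0 of the 6 comparisons. In WT against delta, 33 of the 42 gave the same call from every probe set and 9 passed in some only; in the arrays labelled deleted against delta these were 34 and 8. For Slc48a1, a heme carrier, 1 probe set read 552 and 558 in WT, against 734 and 754 in delta, and passed, while the other read 811 and 524 in WT, against 992 and 693 in delta, with replicate 1 the higher in both groups. The second did not pass (adjusted p = 0.480) but did with the replicate block (adjusted p = 0.0186). For ferroportin Slc40a1, the iron exporter, the dimmer probe set was higher in H1093K than in WT (0.69, past the threshold), and the brighter one gave 0.63 (adjusted p = 0.0584; adjusted p = 0.0315 with the replicate block).

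Other transporter genes were read from lists of companions. Of the 11 carriers left out by the rule, 8 were kept by the level filter. These 8 passed on the arrays labelled deleted against delta, 7 higher and 1 lower, beside 35.6% of all named genes. Slc16a3 (452 and 653 there, 49.4 and 99.4 in delta) passed the level filter only through those arrays, so its call is partly built into the choice. Slc38a4 fell in WT (log2 difference -0.50) and K165A (-0.49). Of 16 ABC transporters, which use ATP, 3 passed in WT against delta, 1 higher and 2 lower, beside 13.1% of all named genes. The cholesterol exporter Abca1 read 1084 and 1411 in WT and 534 and 562 in H1093K, against 757 and 732 in delta, and the multidrug exporter Abcg2 1172 and 1214 in WT and 1901 and 1866 in H1093K, against 1916 and 2135 in delta. Of 15 P-type pumps, 4 rose in WT, beside 5.66% of all named genes higher, led by the sodium pump subunit Atp1b1, with 3761 and 3797 in WT and 1774 and 2009 in H1093K, against 2119 and 2439 in delta (WT difference 0.73, adjusted p = 0.000628; H1093K minus WT -1.0, adjusted p = 9.39e-05). Of 15 subunits of the vacuolar proton pump 2 fell in WT, beside 7.48% of all named genes lower, and of 14 lettered solute carriers and Slco genes 0 passed in WT, K165A or H1093K against delta. Among 16 partners and regulators of carriers, 2 fell in WT, beside the same 7.48%: Mt2, and Slc9a3r1, a scaffold that anchors carriers to the cytoskeleton (-0.77, adjusted p = 0.000131).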

How the data were processed

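Signal intensities per probe set, on a linear scale, were deposited by the authors and made with GCOS 1.4, per the submitters' processing notes; background and scaling options are not given in the sources used here. The trimmed mean, leaving out 2% at each end, lay between 500.1 and 500.2 on every array, so no scaling was added. Of 22690 probe sets, 64 controls were left out; of 22626, 20380 had 1 gene in the platform annotation, 691 several and 1555 none, with symbols updated through GRCm38.p6. No detection calls were used. The number of arrays, 2 a group, limits precision.

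Values were analysed as log2(signal + 16), which understates changes of dim probe sets. Probe sets with a mean above the 40th percentile (13575) were fitted in limma 3.58.1 (R 4.3.3; lmFit, eBayes with intensity trend) with 1 mean per group over all 10 arrays, with 5 residual and 4.73 prior degrees of freedom, and p-values were Benjamini-Hochberg adjusted over all of them, with calls under 0.05. Exact permutation of 2 arrays against 2 cannot go below 0.333 and was not used. The fit was tested on simulated data.

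Replicate numbers were taken from the titles. Deviations of same-numbered arrays correlated for all 10 pairs of groups (r 0.23 to 0.53), so a fit with the replicate number as a block is given beside a named value whose call it changes. Members and lists were chosen with earlier results of these data known. Named carriers were drawn, per comparison, from up to 8 highest and 8 lowest past the threshold whose arrays do not overlap. They were also drawn from up to 3 per substrate class by F test, those whose probe sets differ in call, and those beside the threshold. Not every carrier that met these rules is described. Slc25a36 and Slc31a2, for example, each had 1 probe set that passed as lower in WT than in delta. Others that are named, among them Slc2a8, Slc6a8, Slc35a1, Slc25a4, Slc25a26, Slc25a28, Slc38a1, Slc39a7 and Slc39a11, and Bsg and Emb among partners, were chosen after their values were seen. The Slc66 family was added to the amino acid class after the symbols were seen.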

Additional observations from a re-analysis of the deposited data

How the results depend on the processing

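The replicate block called 26 carriers beside 16 in WT against delta, 23 beside 15 in K165A against delta, 2 beside 0 in H1093K against delta, 16 beside 10 in H1093K against WT and 58 beside 37 across the 5 groups, and lost no call in any of the 6 comparisons; for the arrays labelled deleted it gave 51 beside 34. In H1093K against delta, quantile normalization and taking a gene as the mean of its probe sets each called 1. Leaving out 1 array gave 7 to 17 carriers in WT against delta, 7 to 14 in K165A against delta, 0 in H1093K against delta, 27 to 35 for the arrays labelled deleted, 0 in K165A against WT, 5 to 12 in H1093K against WT and 29 to 37 across the 5 groups. The remaining settings (pseudocount 64, filter at the 60th percentile or none, median centring, quantile normalization, no intensity trend, no arrays labelled deleted, only the arrays compared, mean of probe sets) stayed within 1.5 times in the other 6 counts. Over all probe sets, the block called 2813, 2678, 471, 5856 and 1945 in WT, K165A, H1093K and labelled deleted against delta and in H1093K against WT, beside 1616, 1529, 111, 4475 and 1090, and left-out arrays gave as few as 781, 823, 7, 3106 and 548. No named carrier changed sign past the threshold. With 2 arrays a group, small differences were not detectable, and dim carriers such as Slc52a3 and Slc14a2 are the least certain.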

Other observations

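Of the carrier genes with this form of symbol, 113 lay under the level filter, and 8 of them had both arrays of at least 1 group above the filter's signal of 96.7, 6 of these on the arrays labelled deleted. They were not tested in the fit used here. The glucose carrier Slc2a3 (also GLUT3) read 408 and 391 on the arrays labelled deleted, with 41.8 and 52.6 in WT, 64.6 and 62.5 in K165A and 66.9 and 68.6 in H1093K, against 77.5 and 82 in delta. Slc45a3 read 159.9 and 159 on the arrays labelled deleted, against 20.8 and 24.8 in delta. The sodium and bicarbonate carrier Slc4a4 read 122 and 140.5 in WT, 136 and 147 in K165A and 49.2 and 69.7 in H1093K, against 34 and 38.1 in delta, so its WT and K165A arrays all lay above its H1093K and delta arrays. These 3 were chosen after their values were seen.

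In 2 dimmer Slc25a5 probe sets the 2 arrays of a group differed widely. The dimmer of them read 551 and 439 in WT, 537 and 356 in K165A and 1267 and 548 in H1093K, against 965 and 375 in delta, with replicate 1 of these groups higher.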
